A study of Caenorhabditis elegans with 2 samples.

Results

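The regions described here are autosomal CAR-1 peaks that were listed in both of 2 seCLIP-seq libraries from the nematode Caenorhabditis elegans. A peak was a member when it lay on an autosome in the CAR-1(FL) list, overlapped a gene locus of that library's expression table, and was covered over at least 50% of its own width by a same-strand peak of the CAR-1(dSm) list. By this rule 36114 of the 77986 peaks in the CAR-1(FL) list were members, which is 46.3% of that list and 57.9% of its 62322 autosomal peaks in loci. They lay in 7604 loci and are called shared peaks below. The other 26208 autosomal peaks in loci are called CAR-1(FL)-only peaks, although 25.7% of them touched a CAR-1(dSm) peak by less than the required overlap. No cut on a peak's fold or p-value entered the rule, but a peak had to be found in each library, so folds between the libraries are given as descriptions with no test.

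Strain CZ25180 gave the library CAR-1(FL) and strain CZ26430 the library CAR-1(dSm). Both forms were recovered through GFP with GFP-trap, a bead-coupled single-domain antibody. Alleles, promoters, the animals' age and what dSm stands for were not stated in the labels. With 1 library per group no spread between cultures could be measured, no input library was used here, and a difference in the number of cells of a type cannot be told apart from a difference in RNA per cell or in pull-down.

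CAR-1 is an RNA-binding protein of the LSm14 (Scd6, RAP55) family, found in germline P granules and in processing bodies, where messenger RNAs are held untranslated or decay. Proteins of this family carry an LSm domain at the amino terminus and an RGG-rich region behind it, and they work with DEAD-box helicases such as CGH-1. In seCLIP, ultraviolet light links protein to RNA, the complexes are pulled down, and the RNA fragments are sequenced from a single end, so that reads pile up where the protein touched the RNA.

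Each peak carries the authors' log2 fold of its own library over the other and the authors' −log10 p for that excess, which is 0 where the other library was higher. A shared peak therefore has 2 rows, and the fold of its CAR-1(dSm) row is turned in sign below, so that a positive value is an excess in CAR-1(FL). The folds and p-values together gave back the read numbers for 99.9% of peaks with a −log10 p above 0 and below its ceiling of 400 in each list, with library totals of 4022150 reads (FL) and 5470606 reads (dSm). In each list 1 read had been added to the other library's number, since all 258 intervals listed identically in both, with reads recovered, were matched with the added read and 0 without it. This lowers the fold of each row's own library, most for peaks with few reads. The CAR-1(FL) row minus the turned CAR-1(dSm) row had a median of −0.19. Both rows also cover unlike intervals in all but 272 shared peaks, and the part of each in this difference was not tested. Medians of genes and lists below are of the CAR-1(FL) row unless another is named. Reads are printed below without the added read.

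Coverage of most shared peaks was modest. Among the 9821 shared peaks whose reads came from the CAR-1(FL) row, the median was 14 reads in CAR-1(FL) against 14 in CAR-1(dSm). Among the 20264 whose reads came from the CAR-1(dSm) row, it was 11 and 24. CAR-1(FL)-only peaks with recovered reads were shallower, with medians of 7 reads in CAR-1(FL) against 4 in CAR-1(dSm), and 1450 of those 19905 had none in CAR-1(dSm).

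The overlap required by the rule sets how close the rows of a shared peak must lie, so their placement is a description. The median width was 45 bases in the CAR-1(FL) list and 53 bases in the CAR-1(dSm) list, against 35 bases for CAR-1(FL)-only peaks. The CAR-1(dSm) row was the wider one in 61.1% of the pairs. The centres lay within 10 bases of each other in 65.7% of the pairs, and the median distance between them was 6.5 bases. In 272 cases start and end were identical, and 38.5% of the shared peaks were covered over their whole width. Most, 32919, overlapped 1 CAR-1(dSm) peak and 3195 overlapped several, so the shared peaks had 35091 distinct partners. At the edge of the rule, 354 peaks were covered over exactly 50% of their width, and the highest coverage outside it was 49.6%. The 1667 peaks covered over 50% to 55% had a median log2 fold of 0.029 and the 1090 just outside, from 45%, had 0.081.

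Shared peaks leaned slightly towards CAR-1(dSm). The median log2 fold was −0.29 in the CAR-1(FL) row and −0.10 in the CAR-1(dSm) row, that is 1.23-fold and 1.07-fold higher in CAR-1(dSm), and −0.20 for the mean of both rows. By the CAR-1(FL) row 10570 peaks, 29.3%, were above 0. Both rows differed by less than 0.5 in 88.2% of the peaks and correlated at r = 0.924 over 36114 peaks, a description of values that share most of their reads. The CAR-1(FL)-only peaks had a median of 0.44, and peaks listed in 1 library only must lean towards it, so that contrast was fixed by the choice of members. The median of all autosomal peaks in loci was 0.029.

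**Figure D1:**
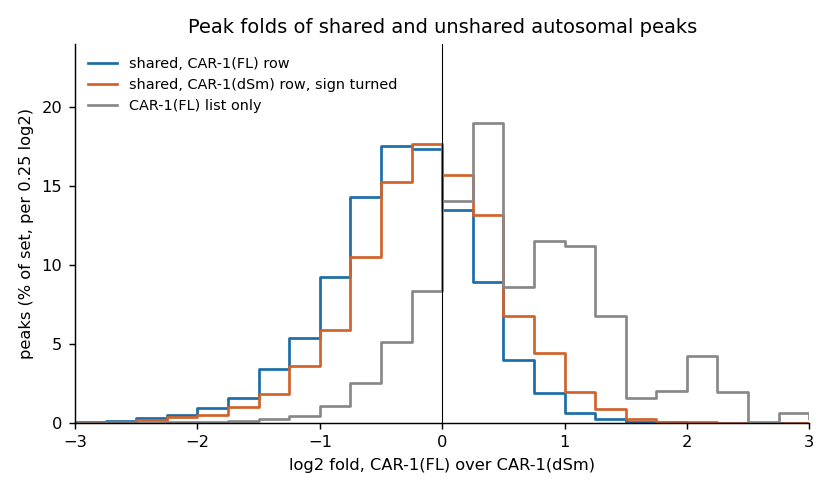
Distribution of authors' log2 folds (x axis, CAR-1(FL) over CAR-1(dSm)) as percent of each set in steps of 0.25 (y axis, range from −3 to 3 shown), for the 36114 shared peaks by each of their rows and the 26208 CAR-1(FL)-only peaks. The shared curves peak just below 0, with medians of −0.29 and −0.10, and the CAR-1(FL)-only curve lies to the right with a median of 0.44.

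Few shared peaks differed strongly between the libraries. A −log10 p of at least 3 with a log2 fold of at least 1 was reached in the direction of CAR-1(FL) by 93 shared peaks in 55 loci, 0.258%, where the share over the whole CAR-1(FL) list was 0.224%. In the direction of CAR-1(dSm) the partner row reached it for 755 shared peaks in 306 loci, 2.09%, beside 1.99% over the whole CAR-1(dSm) list. Both shares lie near the background of their lists. By fold alone, 4433 shared peaks, 12.3%, were at −1 or below in the CAR-1(FL) row, beside 7.82% over that list. The list includes the CAR-1(FL)-only peaks, which must lean towards CAR-1(FL), so this difference was fixed in part by the choice of members.

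The types of RNA behind these called peaks differed by direction. Of the 93 peaks higher in CAR-1(FL), 49 lay in 27 loci of small nucleolar RNAs (snoRNAs), which guide chemical modification of ribosomal RNA, and 42 lay in protein-coding loci. Of the 755 higher in CAR-1(dSm), 646 (85.6%) lay in 239 protein-coding loci and 11 (1.46%) in snoRNA loci, both near or below those shares. A further 17 (2.25%) lay in loci of small nuclear RNAs (snRNAs) of the spliceosome, which made up 0.163% of all shared peaks. The ankyrin gene unc-44 held 37 of the 755 among its 75 shared peaks, and the synaptic scaffold gene tag-80 held 27 among its 75. Another 17 lay among the 20 shared peaks of ida-1. snt-4 and unc-13 held 13 each, among 13 and 37 shared peaks.

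Small structured RNAs stood out by how often their peaks were shared. A peak that overlapped several loci was given to the shortest, which places a snoRNA inside an intron before its host gene. Of the 610 autosomal CAR-1(FL) peaks in snoRNA loci 542 were shared, 88.9%, against 57.2% of the 57961 in protein-coding loci. For snRNA loci it was 59 of 69, 85.5%, and all 12 peaks in ribosomal RNA loci were shared. Protein-coding loci still made up 33140 of the shared peaks, 91.8%. The snoRNA peaks were deep, which goes along with being listed in both libraries: the median of the 243 with reads from an uncapped CAR-1(FL) row was 2441 reads, against 14 over 9065 such protein-coding peaks. How much of the difference in sharing depth carries was not tested.

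The snoRNA and snRNA peaks lay on opposite sides of 0. The median log2 fold over snoRNA peaks was 0.24 in the CAR-1(FL) row and 0.25 in the CAR-1(dSm) row, and 44 of 148 snoRNA loci had a median below 0. Of the 148 loci 22 were at 1 or above and 6 at −1 or below. The 432 snoRNA peaks that also lay in a protein-coding locus had a median of 0.25 and the other 110 had 0.19. The snRNA peaks had a median of −0.75, and 41 of 48 loci were below 0; snRNA genes come in near-identical copies, so the assignment to single loci is uncertain. The snoRNA peaks were narrow, with a median of 17 bases, and 79.5% of them directly touched another shared peak, against 9.53% of all shared peaks. Several such peaks are slices of 1 pile of reads and are not separate sites.

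**Figure D2:**
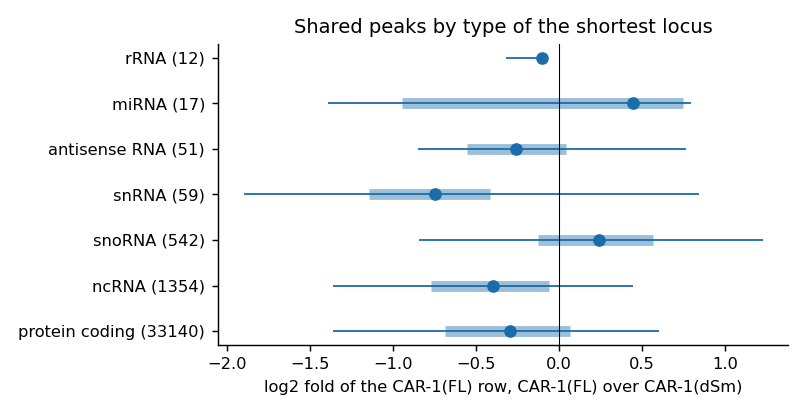
Authors' log2 fold of the CAR-1(FL) row (x axis) by type of the shortest locus (y axis, number of shared peaks in brackets); points are medians, thick bars the middle 50% and thin lines the middle 90%. snoRNA peaks have a median of 0.24 and snRNA peaks one of −0.75, and protein-coding peaks lie between at −0.29.

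By −log10 p of the CAR-1(FL) row 129 shared peaks were tied at the ceiling of 400, and 117 of them lay in snoRNA loci. No row of that list lay between 87.8 and 400, so 400 is not read as a measured value. Reads of tied peaks are the smallest numbers that give the fold. The 8 named here had the largest sums of these smallest numbers, each locus once. A tied peak with more reads may have a smaller sum, so the choice is no exact ranking by depth. All 8 lay in snoRNA loci. In F01D5.12 (chromosome II, 14018277 to 14018283, ce10, minus strand) there were at least 42431 reads in CAR-1(FL) against 24966 in CAR-1(dSm), which is 2.31-fold higher in CAR-1(FL) after scaling to library totals. In T26A8.6 (IV, 8428630 to 8428678, minus strand) there were at least 38588 and 19792, or 2.65-fold. Other peaks reached the same ceiling with small differences. In F54E7.11 (III, 5679778 to 5679792, plus strand), which lies in the locus of the ribosomal protein gene rps-12, there were at least 39582 and 46204 reads, a fold of only 1.17. High −log10 p values at this depth thus did not mean large folds. The remaining 5, in D1046.6, T04A8.17, F11A10.9, F28D1.13 and Y74C9A.6, were 1.20-fold to 1.62-fold higher in CAR-1(FL).

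By −log10 p of the CAR-1(dSm) row 17 shared peaks were tied at the ceiling of 400. The 8 named here were again taken by the largest sums of the smallest numbers that give the fold, each locus once. They were more mixed. Their positions, reads and folds are those of the CAR-1(dSm) row. In sup-6, a gene of the snRNA class (II, 12944768 to 12944827, minus strand), there were at least 7286 reads in CAR-1(FL) against 13574 in CAR-1(dSm), 1.37-fold higher in the latter. The noncoding RNA gene CD4.18 (V, 5587346 to 5587388, plus strand) had at least 394 and 5038 reads, a 9.38-fold excess in CAR-1(dSm). On the same chromosome C18C4.17 (V, 5576242 to 5576271, plus strand), inside the locus of the kinesin light chain gene klc-2, had at least 288 and 2989 reads, or 7.60-fold. The snoRNA loci R166.7 and F25H5.9 went against most snoRNAs, at 1.52-fold and 1.72-fold higher in CAR-1(dSm). Of the others, the last, in unc-54, is described with its gene, and those in the snRNA locus Y57G11C.35 and in the noncoding locus Y47H9A.4, were 1.57-fold and 2.46-fold higher in CAR-1(dSm).

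A further set was chosen for depth and for a log2 fold within 0.25 of 0, so its small folds restate that choice. The deepest of the set lay in rrn-2.1, a ribosomal RNA gene (I, 15064328 to 15064349, plus strand), with 102775 reads in CAR-1(FL) against 149224 in CAR-1(dSm). Scaled to library totals that is a log2 fold of −0.094. Ribosomal RNA genes are repeated, so its reads may come from several copies. The snoRNA locus Y24D9A.9 (IV, 4390201 to 4390235, minus strand) had 41799 and 51003 reads, a log2 fold of 0.16. Among the 8 deepest peaks within 0.25 of 0, the other 6 lay between 0.12 and 0.22, in F54E7.11, Y23H5B.13, F11A10.9, C14C10.8, C10C6.8 and F17C11.15. The widest shared peaks, in dot-1.1, fust-1, sfa-1 and hsp-60, spanned 243 to 277 bases and lay between −0.34 and 0.17.

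Among the 10 loci with the most shared peaks, unc-44 and tag-80 kept every peak on 1 side of 0. unc-44, which encodes the ankyrin that anchors the neuronal membrane skeleton, had 75 shared peaks from −1.86 to −0.14 and a median of −1.22 in the CAR-1(FL) row. tag-80, related to the active-zone scaffold Piccolo, also had 75, from −2.75 to −0.24 with a median of −1.35. No peak of either gene lay above 0 in either row. The locus of tag-80 was not matched to a gene type in the reference table.

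Large muscle genes lay on the other side. unc-89, the obscurin that organises the sarcomere's M-line, had 72 shared peaks from −0.56 to 1.18 and a median of 0.32, with 58 above 0. unc-22, the giant kinase twitchin of the thick filament, had 68 and a median of 0.20. In ttn-1, a titin-like gene, 67 shared peaks ran from −0.997 to 2.01 with a median of 0.73. The spectraplakin gene vab-10, which links epidermal attachments to the cytoskeleton, had 71 shared peaks and a median of 0.15. vit-6, a vitellogenin yolk protein gene of the intestine, was balanced, with 59 peaks, a median of −0.029, 26 above 0 in the CAR-1(FL) row and 33 in favour of CAR-1(dSm) in the other row. frm-1, gcn-1, which encodes a ribosome-associated sensor of translation stress, and the cadherin gene hmr-1 had 52, 52 and 50 peaks with medians of −0.61, −0.42 and −0.85.

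Peaks near the 3′ end differed from the rest in some of these genes, a description made after the values were seen. In ttn-1 the 11 peaks in the last 10% of the locus had a median of 0.0076, against 0.82 for the other 56. In vab-10 the last 10% lay higher, at 0.29 against 0.13, and in unc-22 it was 0.20 against 0.24. The last shared peak of unc-54, the major myosin heavy chain gene of body-wall muscle, lay at 99.5% of the locus (I, 14856160 to 14856247 in the CAR-1(dSm) row, minus strand) and held at least 490 reads in CAR-1(FL) against 2284 in CAR-1(dSm), a log2 fold of −1.77 by that row and −1.81 by the other. The other 41 shared peaks of unc-54 lay between −0.37 and 0.41. No exon, intron or UTR is given for these places because the annotation used here was of another build.

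**Figure D3:**
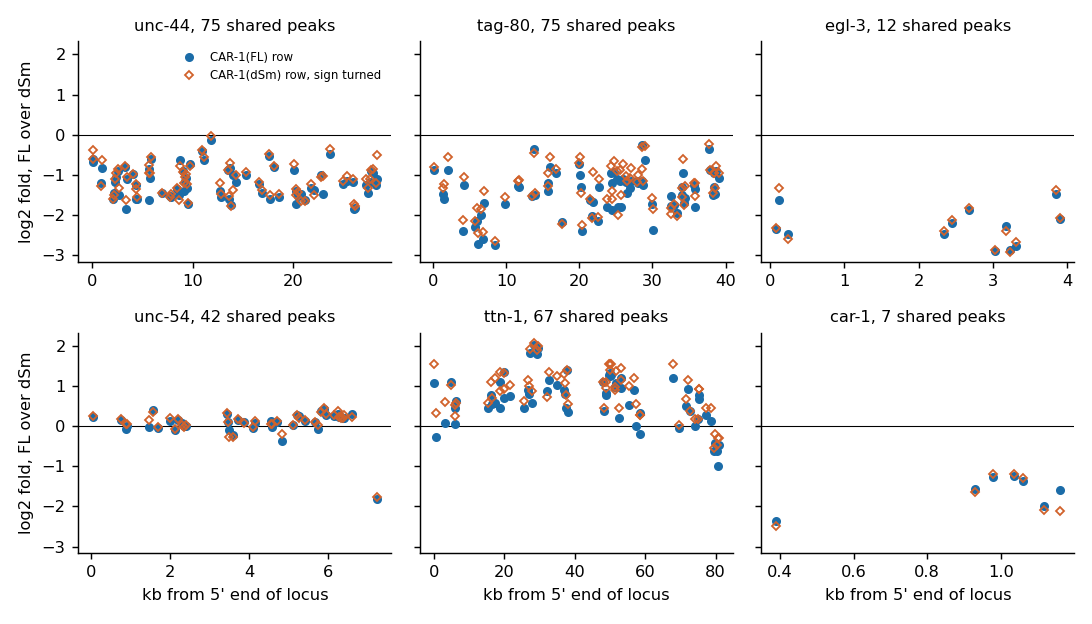
Authors' log2 fold (y axis, CAR-1(FL) over CAR-1(dSm)) of each shared peak against the distance of its centre from the 5′ end of the locus in kilobases (x axis), for unc-44, tag-80, egl-3, unc-54, ttn-1 and car-1, with filled circles for the CAR-1(FL) row and open diamonds for the CAR-1(dSm) row. All peaks of unc-44, tag-80, egl-3 and car-1 lie below 0, while unc-54 lies near 0 except for its last peak at −1.81.

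Across 818 loci with at least 10 shared peaks, the median mean-of-rows log2 fold was −0.30, with 655 loci below 0 and 163 above. The SD between loci was 0.42 and the median SD among the peaks of 1 locus was also 0.42. These are unlike measures, since the former is over medians of at least 10 peaks and the latter over single peaks, many of few reads. The lowest locus was egl-3, the proprotein convertase that cuts neuropeptide precursors, with a median of −2.33 over 12 peaks. Its most 5′ peak (V, 10173619 to 10173686 in the CAR-1(dSm) row, minus strand) had 49 reads in CAR-1(FL) against 337 in CAR-1(dSm). It was followed by the synaptotagmin gene snt-4, pgal-1, which acts in peptide amidation, ida-1, a dense-core vesicle protein gene, and the guanylyl cyclase gene gcy-12, with medians from −2.06 to −1.74 over the mean of both rows. By the same measure the highest were Y45F10B.13, ttn-1, the acyl-CoA dehydrogenase gene acdh-1 and the filamin gene fln-1, with medians of 0.89, 0.85, 0.75 and 0.72. These extremes were picked by their values.

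Gene lists for tissues and processes were next described by their shared peaks. Neuronal genes were lowest. The list had 606 shared peaks in 75 genes. Of these peaks 563 were higher in CAR-1(dSm) by that library's row, the median was −1.34 (2.53-fold higher in CAR-1(dSm)), and 232 peaks, 38.3%, passed both thresholds, where the background of that list was 1.99%. The kinesin gene unc-104, which carries synaptic vesicle precursors, had 29 peaks and a median of −1.31, and the synaptic vesicle priming gene unc-13 had 37 and a median of −1.50. Without tag-80 and unc-44 the list's median was −1.36. Neuropeptide genes of the flp and nlp families lay at −1.71 over 123 peaks in 45 genes. The 36 neuronal-list peaks above 0 in the CAR-1(FL) row lay in 22 genes and most often in nlp-36, nlp-24 and nlp-27; nlp-29, nlp-30 and nlp-31, also among them, encode antimicrobial peptides made in the epidermis. The direction of this list was already known when it was drawn up, so its count is no independent evidence.

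Markers of neurons, muscle and epidermis differed in the same directions in the expression tables, although the epidermal markers had only 6 shared peaks, in 2 genes. These tables come from the same 2 pull-down libraries as the peaks, so a shared direction is no independent evidence. Germline markers were also higher in CAR-1(FL) by FPKM. Their 25 shared peaks, however, lay near 0, with medians of −0.039 in the CAR-1(FL) row and 0.0032 in the other. The summed FPKM of 7 neuronal markers was 2.25 in CAR-1(FL) against 10.5 in CAR-1(dSm), with snb-1 and rab-3 listed at 0 in CAR-1(FL). For 5 epidermal markers the sums were 102 and 38.8, for 5 muscle markers 21.7 and 16.1, for 6 germline markers 34.7 and 26.8, and for 5 intestinal markers 337 and 348, with ges-1 listed at 0 in CAR-1(dSm). The part that tissue content of the libraries has in the peak folds was not tested.

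Signalling lists lay between the neuronal genes and the rest. Over 328 shared peaks in 19 calcium and G protein signalling genes the median was −0.74, and 43 peaks, 13.1%, were called higher in CAR-1(dSm) beside the background of 1.99%. unc-43, the calcium/calmodulin-dependent kinase II, had a median of −0.92 over 28 peaks. egl-8, a phospholipase C beta, had −0.85 over 39, and unc-68, the ryanodine receptor of the sarcoplasmic reticulum in muscle, had −0.53 over 50. The list shares goa-1, egl-30 and unc-43 with the neuronal list. Regulators of axon regeneration also had a median of −0.74, over 161 peaks in 15 genes, with 12, 7.45%, called higher in CAR-1(dSm) beside the background of 1.99%. It shares unc-33 and unc-70 with the neuronal list. The regeneration kinase gene dlk-1 had −1.06 over 15 peaks, and sax-7, an L1-type adhesion molecule, had −0.84 over 28.

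The genes of mitochondrial calcium named by the study's title were thinly covered. mcu-1, the pore subunit of the mitochondrial calcium uniporter, had 5 shared peaks from −1.02 to 0.52 with a median of −0.61, and −0.47 in the other row. Its deepest pair were a peak with 20 reads in CAR-1(FL) against 18 in CAR-1(dSm) at the 5′ end and a peak with 14 and 32 further on. micu-1, the uniporter's gatekeeper, also had 5, from −0.97 to 0.20 with a median of −0.40 in the CAR-1(FL) row and −0.016 in the other row, and its deepest peak had 15 and 31 reads. No peak of either gene was called. The shares called over the whole lists were 0.224% towards CAR-1(FL) and 1.99% towards CAR-1(dSm). Sets as small as these, and the list of 64 peaks below, would hold few calls at such shares. Over the list of mitochondrial calcium and dynamics genes, 64 shared peaks in 12 genes had a median of −0.51 in the CAR-1(FL) row and of −0.25 in the other row, with none called; ric-7, needed for mitochondria in axons, had 16 and a median of −0.62, and vdac-1, the outer membrane channel, had 7 and −0.44.

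The mRNA of car-1 itself was recovered more in CAR-1(dSm) at each shared site. All 7 shared peaks were called higher in CAR-1(dSm), from −2.36 to −1.25 in the CAR-1(FL) row. The peak at 79.4% of the locus (I, 12905396 to 12905443 in the CAR-1(dSm) row, plus strand) had 214 reads in CAR-1(FL) against 913 in CAR-1(dSm). The FPKM of car-1 in the same libraries was 45.2 (deposited interval 38.8 to 51.6) and 94.3 (86.9 to 102), the same direction but no independent measurement. Endogenous and tagged car-1 RNA cannot be told apart here.

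Genes of the translation machinery were shared often and leaned slightly towards CAR-1(dSm). Of 573 CAR-1(FL) peaks in ribosomal protein genes 518 were shared, 90.4%, against 57.9% of all autosomal peaks in loci. Their median was −0.42, beside −0.29 for all shared peaks, and 67 of 68 genes had a median below 0. Only 5 of those peaks were called higher in CAR-1(dSm), 0.965%, below the background of 1.99%. Peaks of translation factors (82.9%), intestinal genes (83.2%), histone genes (82.5%) and chaperone genes (81.3%) were also shared often. The part that depth has in this was not tested. rpl-3 had 21 shared peaks and a median of −0.55, and rps-8 had 18 and −0.50. Translation factors lay at −0.45 over 180 peaks with 24 of 25 genes below 0. Elongation factor genes eef-1A.1 and eef-2 had medians of −0.42 and −0.59 over 29 and 21 peaks, none above 0, and the poly(A)-binding protein gene pab-1 had −0.70 over 17. Chaperone genes had a median of −0.43 over 126 peaks and histone genes −0.38 over 47; histone genes have near-identical copies. daf-21, which encodes the cytosolic Hsp90, had −0.55 over 15 peaks, and hsp-60, the mitochondrial chaperonin, had −0.10 over 18.

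Genes of mRNA decay and RNP granules, CAR-1's own surroundings, lay at the median of all shared peaks. Their 158 shared peaks in 29 genes had a median of −0.29. The 7 called higher in CAR-1(dSm), 4.43% beside 1.99% over that library's whole list, were those of car-1 itself. The exonuclease gene xrn-1 had 26 peaks and a median of −0.41, ain-2, a partner of the microRNA machinery, had 13 and −0.40, and cey-4, a Y-box RNA-binding protein gene, had 11 and −0.17. Germline and oocyte genes had −0.14 over 164 peaks. None was called, beside shares of 0.224% towards CAR-1(FL) and 1.99% towards CAR-1(dSm) over the whole lists. The poly(A) polymerase gene gld-2 had −0.29 over 18 peaks in the CAR-1(FL) row but 0.047 in the other row. The eggshell gene cbd-1 had −0.42 over 10. Intestinal genes had −0.071 over 178 peaks, and there acdh-1 at 0.75 over 21 peaks and the fatty acid desaturase gene fat-1 at −0.99 over 10 lay far apart.

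Muscle and cuticle genes were the lists above 0. The 473 shared muscle peaks had a median of 0.18 in the CAR-1(FL) row and 0.26 in the other, 348 were above 0, and 14 of 19 genes had a median above 0. unc-52, the perlecan of the muscle basement membrane, had 42 peaks and a median of 0.14. The list named for cuticle collagens had a median of 0.21 over 379 peaks in 93 genes, with 257 above 0 and 8, 2.11%, called higher in CAR-1(FL) beside the background of 0.224%. Its names include dpy genes that encode other proteins. dpy-21, a histone demethylase of dosage compensation, had 24 peaks and a median of −0.59, and dpy-28, a condensin subunit, had 18 and −0.46. With only the names of collagen genes, a choice made after the values were seen, 304 peaks in 82 genes had a median of 0.28, 1.21-fold higher in CAR-1(FL), with 236 above 0. The collagen gene dpy-4 had 11 shared peaks, all above 0, with a median of 0.50, and col-139 had 9 with a median near 0. As for the neuronal list, the directions of the muscle and collagen lists were known beforehand.

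**Figure D4:**
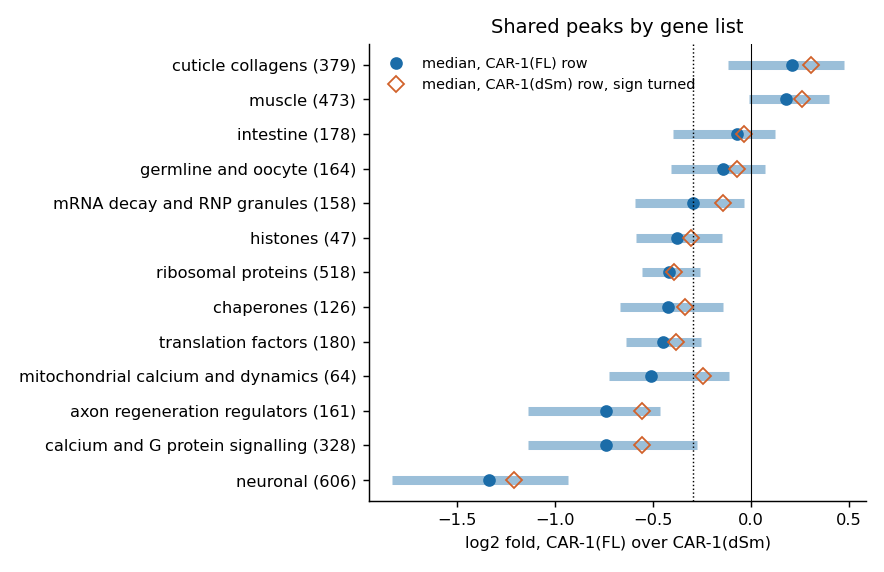
Median authors' log2 fold (x axis, CAR-1(FL) over CAR-1(dSm)) of the shared peaks in each gene list (y axis, number of peaks in brackets); circles are the CAR-1(FL) row with bars for its middle 50%, open diamonds the CAR-1(dSm) row, and the dotted line the median of all shared peaks at −0.29. The neuronal list lies lowest at −1.34, and muscle at 0.18 and cuticle collagens at 0.21 lie above 0.

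Shared peaks lay at the ends of genes somewhat more often than CAR-1(FL)-only peaks. Among peaks in exactly 1 protein-coding locus, 3638 of 24202 shared peaks had their centre in the first 10% of the locus, against 2205 of 18908 CAR-1(FL)-only peaks, 11.7%. In the last 10% lay 4203 shared peaks, 17.4%, and 2451 of the others. The median log2 fold hardly changed along the locus, from −0.25 in the first 10% to −0.32 in the last. Most loci had peaks on 1 strand only, as in 97.8% of 1802 loci with at least 10 peaks, so the strand of the peak was used to set the 5′ end.

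**Figure D5:**
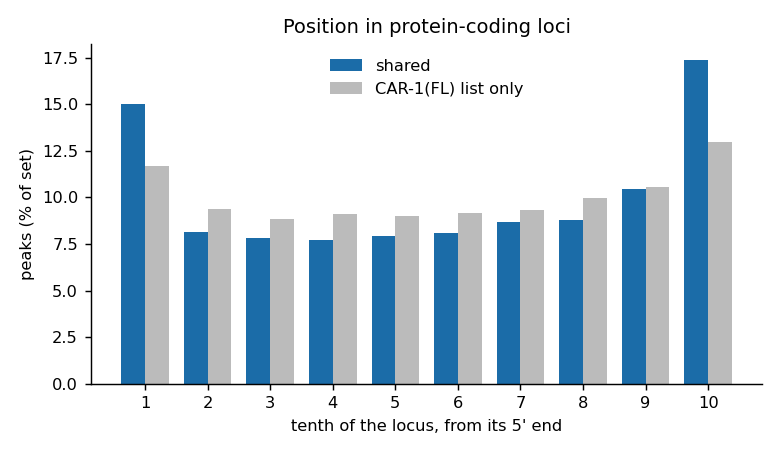
Percent of peaks (y axis) in each of 10 equal parts of the locus from its 5′ end (x axis), for 24202 shared and 18908 CAR-1(FL)-only peaks in exactly 1 protein-coding locus. Shared peaks exceed the others at both ends, where 3638 and 4203 of the 24202 shared peaks lie in the first and the last part, beside 2205 and 2451 of the 18908 others.

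The chromosomes were much alike. From 54.8% of the autosomal peaks in loci on chromosome II to 59.8% on chromosome I were shared, with median log2 folds from −0.33 on chromosome III to −0.27 on II and V. On the X chromosome, which the rule left out, the same overlap was met by 4405 of 8597 peaks, 51.2%, with a median of −0.36.

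Gene-level expression values were also compared for the host genes. Of the 7604 host genes 3003 reached an FPKM of 1 somewhere, and their median was 2.02 in the FL and 1.91 in the dSm library. The median difference in log2(FPKM + 1) was 0.085 over the host genes, near the 0.075 over all 4361 genes at that level, and it was 0.00 over the host genes with no filter on FPKM. A difference of at least 1 was reached by 273 genes towards CAR-1(FL), 9.09%, and by 275 towards CAR-1(dSm), 9.16%, against 14.3% and 15.2% of all those genes. Host genes had to hold a peak found in each library, so this contrast was fixed in part by the choice of members. For a correlation, loci needed at least 10 shared peaks, an FPKM of at least 1 in a library and one above 0 in both. Over these 487 loci the FPKM difference and the locus median correlated at r = 0.432. Both come from the same libraries, and this is a description across genes.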

How the data were processed

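Peak lists and FPKM tables of 2 libraries, 1 per group, were used. The authors deposited a −log10 p-value and a log2 fold of each library over the other per peak, units read from the values, with a ceiling of 400 on the first. Per the file headers the FPKM tables have the Cufflinks layout with lower and upper bounds; UMI-tools, cutadapt, STAR, SAMtools and the build ce10 are named in the submitters' processing notes. Read counting and the peak caller are not stated there. The form of the p-value, Fisher's exact test where an observed or expected number is below 5 and chi-square with Yates' correction elsewhere, was inferred from the deposited values by trying several forms, and so were the library totals.

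With it the reads behind each peak were recovered within 3e-05 on the −log10 scale or a relative tolerance of 1e-05, and the recovery was tested on simulated data made with the same form. Where the −log10 p is 0 only the ratio of reads is known, so 82.3% of the shared peaks have read numbers from either row. Fold changes are the authors' and a shared peak takes as partner the CAR-1(dSm) peak with the longest overlap. A peak takes the shortest locus it overlaps, without regard to strand, because the expression tables give none; 28.6% of the shared peaks overlapped more than 1 locus and 1017 had a shortest locus over 100000 bases. Coordinates are those of the files, counted from 1. Gene types came from a RefSeq table of the assembly WBcel235, matching 41117 of 41560 names, and none of its coordinates were used; no peak sequence is shown because no ce10 genome was used here. FPKM differences are log2(FPKM + 1), over genes that reached an FPKM of 1 in a library, and understate the change of low genes.

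The members, the 13 gene lists and the tests were chosen with earlier results of these data known. Named peaks are, for each row, 8 of those tied at the −log10 p ceiling of 400. These were taken by the largest sums of the smallest read numbers that give the fold. Further named peaks are the 8 deepest with a log2 fold within 0.25 of 0 and the 4 widest. Within each of these choices a locus was named once. Named genes are the 10 loci of at most 100000 bases with the most shared peaks, and car-1, micu-1 and mcu-1. From each list 2 to 4 genes with the most shared peaks were also named. Other names were chosen after their values were seen. With 1 library per group no test was run and no p-value computed. Tools were Python 3.11.15, numpy 2.4.6, pandas 2.3.3, scipy 1.17.1 and matplotlib 3.10.9.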

Additional observations from a re-analysis of the deposited data

How the results depend on the processing

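No paired analysis was possible because each group has 1 library, and no library could be left out. The number of shared peaks was 42857 with an overlap of 1 base (68.8% of the autosomal peaks in loci), 19746 at 90% (31.7%), 29007 with 50% of both widths (46.5%) and 36154 on either strand. With a −log10 p of at least 1 asked of both lists 1 peak remained (0.0346%), because a value above 0 in one list nearly always meant 0 in the other. With the fold threshold raised to 2 (log2), called peaks fell to 3 towards CAR-1(FL), to 356 towards CAR-1(dSm) by the CAR-1(FL) row and to 193 by the CAR-1(dSm) row. The last count was 1248 at a −log10 p of at least 2 and 324 at 5; by the CAR-1(FL) row no p filter towards CAR-1(dSm) was run, since it is 0 there. The median of the shared peaks was −0.39 with at least 10 reads and −0.23 from 30 bases on. The read filter kept 29449 peaks, where 29726 had read numbers at all. It thus mainly removed peaks without read numbers, such as those above 0 in neither row, and is not a filter on depth alone. The median was −0.47 at 90% overlap and −0.32 centred on all autosomal peaks in loci. For the same median the partner row gave −0.10 and the mean of both rows −0.20, both added after seeing the data. That of the CAR-1(FL)-only peaks was 0.61 from 30 bases on, 0.27 at 90% overlap and 0.42 when centred; the read filter was not run for them because peaks at or below 0 give no read number. Medians over genes instead of peaks were −0.34 for translation factors, 0.30 for cuticle collagens, 0.13 for muscle, −0.071 for germline, −0.14 for intestine and −0.85 for calcium and G protein signalling. With every overlapping locus, ribosomal proteins lay at −0.37. The partner row, added later, gave −0.39 for ribosomal proteins, −0.14 for mRNA decay, −1.21 for neuronal genes, 0.31 for collagens, 0.26 for muscle, −0.072 for germline, −0.033 for intestine, −0.25 for the mitochondrial list and −0.56 for both the calcium and the regeneration list. Collagen names alone gave 0.28. No list changed sign. The FPKM difference of host genes was 0.12 with a pseudocount of 0.1 and 0.00 with no filter on FPKM. The causes of these shifts were not tested. Depth limits single peaks, most of which rest on fewer than 30 reads per library, and every value on 1 library per form.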
